A study of Mus musculus with 12 samples.

Results

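The RNA of 10 genes of the ADAMTS protease family and of the fibrillin microfibrils was examined in sorted Pomc-eGFP+ cells of the mouse anterior pituitary: Adamts2, Adamts3, Adamts14, Adamtsl1, Adamtsl2, Adamtsl3, Adamtsl4, Adamtsl5, Fbn1 and Fbn2. They are 10 of the 55304 genes listed in the expression table, and all 10 were found there by symbol. The set was chosen on measured values, because Adamtsl3, Adamts14 and Fbn1 were high in mice given dexamethasone (DEX), and the other 7 genes were taken as relatives of these 3. The difference between DEX and control is therefore given for these genes as a description, without a p-value. All mice were males that carried a Pomc-eGFP transgene, in which the Pomc promoter drives the fluorescent protein, on a C57Bl6/J background, and they were 8 weeks old at the start. Control mice drank plain water for 8 weeks, and DEX mice drank water with 2.5 µg/ml DEX for 4 weeks after 4 weeks of plain water. The other groups had the same 4 weeks of DEX followed by 1 week or 4 weeks of plain water (recovery). The 1 week group had 3 weeks of plain water before DEX. Per the study's methods, all groups thus spent 8 weeks in the experiment and were collected at 1 time point. Each group had 3 libraries, each from cells of 2 or 3 pooled pituitaries, so n = 3 pools in every group.

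The ADAMTS enzymes are secreted zinc metalloproteinases with thrombospondin repeats. Adamts2, Adamts3 and Adamts14 form the branch that removes the amino-terminal propeptide of fibrillar procollagens, a step that precedes fibril assembly, and Adamts3 also processes the lymphatic growth factor VEGF-C. The ADAMTS-like (Adamtsl) proteins have the thrombospondin repeats but no protease domain, and several of them bind fibrillin. Fibrillins, the products of Fbn1 and Fbn2, are large glycoproteins that polymerise into microfibrils, which carry elastic fibres and hold latent TGF-β complexes in the matrix. In the pituitary such matrix genes are usually thought of as products of stromal and vascular cells rather than of corticotrophs, the cells that make ACTH from Pomc.

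The stretches before the start sites of Adamtsl3 and Adamts14 are printed because these 2 genes went from almost no reads to a clear signal together, and that of Adamtsl2 because it was the most abundant member in all groups. The windows come from RefSeq (GRCm38.p6), run 5′ to 3′ on the gene's strand over the 250 bases before the start, and leave out bases that the annotation places in an exon. Capitals mark the GC box (GGGCGG or CCGCCC, so both strands) and the TATA motif (TATAAA or TTTATA).
Adamtsl3 promoter, chr7:82335444-82335693, plus strand: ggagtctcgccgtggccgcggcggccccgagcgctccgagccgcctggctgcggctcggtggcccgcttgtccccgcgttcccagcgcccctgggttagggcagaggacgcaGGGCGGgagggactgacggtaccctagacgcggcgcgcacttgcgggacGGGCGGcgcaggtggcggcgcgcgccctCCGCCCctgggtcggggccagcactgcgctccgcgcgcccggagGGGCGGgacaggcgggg
Adamts14 promoter, chr10:61273439-61273669, minus strand: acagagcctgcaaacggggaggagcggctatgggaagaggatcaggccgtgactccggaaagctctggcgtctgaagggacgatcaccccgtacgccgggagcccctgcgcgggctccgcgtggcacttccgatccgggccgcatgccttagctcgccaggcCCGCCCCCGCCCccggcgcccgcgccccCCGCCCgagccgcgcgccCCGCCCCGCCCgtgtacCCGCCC
Adamtsl2 promoter, chr2:27079129-27079378, plus strand: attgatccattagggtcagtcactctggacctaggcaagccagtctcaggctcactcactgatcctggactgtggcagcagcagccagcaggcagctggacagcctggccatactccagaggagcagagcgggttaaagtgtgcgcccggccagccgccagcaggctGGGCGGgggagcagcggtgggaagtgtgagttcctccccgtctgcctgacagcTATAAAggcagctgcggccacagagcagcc
A window was at hand for 8 of the 10 members. That of Fbn1 lies wholly within annotated exons and was left out, which leaves 7, among them that of Adamtsl5, whose start matched no transcript of the annotation. The Adamtsl3 window had 80.0% G or C with 4 GC boxes, and the Adamts14 window 76.4% with 6 GC boxes, some of which overlap. Shares of G or C were taken over the full 250 bases, which include 19 exon bases for Adamts14 and 1 for Adamts2. The median over 32851 windows of mouse genes was 52.4%, and 3.04% of them were at or above the value of Adamts14. GC-rich starts were not limited to the genes that were high in DEX, since the windows of Adamts2 and Adamts3 both had 78.0%. The GC box was found in all 7 windows and in 32.7% of all windows, from which exon bases were not removed. Adamtsl2 had 62.8% G or C and the only TATA motif among the 7 windows, 30 bases before the start, against 12.4% of all windows with one. The arm of the glucocorticoid response element (AGAACA or TGTTCT) was in none of the 7 windows and in 16.1% of all windows, and the full palindrome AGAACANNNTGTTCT was in none of the 7 and in 3 of all windows. No match says only that these letters are not within 250 bases of these starts.

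Reads on genes ranged from 7719894 to 12848078 per library, and 1 read was worth 0.0787 to 0.127 normalised counts (CPM of the effective library size). The libraries did not hold RNA of corticotroph markers alone. Summed RNA of the somatotroph and lactotroph markers was 110636 to 386049 CPM over the 12 libraries, and Pomc was 4241 to 8521 in DEX against 34562 to 74260 in control. The paper set its sorting gates on wild-type pituitaries to keep out eGFP-negative cells. Whether the somatotroph and lactotroph RNA came from other cells in the sort was not tested. Pool 3 of the 1 week recovery group stood apart in some markers. It had 39.5 CPM of Tbx19, the corticotroph lineage factor, and 1.56 of Avpr1b, the pituitary vasopressin receptor, whereas the other 11 libraries had at least 94.4 and 9.30, and its summed endothelial markers were the highest of all at 178. Not all corticotroph markers were low there. Their sum, most of which is Pomc, was 43869 CPM, above the 35294 of control pool 2. Pcsk1 was at least 193 CPM in every 1 week pool, above the lowest control pool at 155. Several log2 differences of members that involve the 1 week group are given with and without that pool. Shares of genes counted over lists in comparisons with that group, and its ranges of summed markers, include the pool throughout. Because the samples are bulk RNA, fewer cells of a type and less RNA per cell cannot be told apart.

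Adamtsl3 (chromosome 7, 82335694 to 82614450, plus strand, GRCm38), a protease-free ADAMTS-like protein, was close to absent outside DEX. The control pools held 1, 1 and 0 reads (0.0787, 0.118 and 0 CPM), and the DEX pools held 83, 52 and 104 reads (6.87, 4.25 and 11.7 CPM). All 3 DEX pools lay above all control pools. Since no control pool exceeded 3 reads, the fold is a lower bound: the DEX mean of 7.60 ± 3.76 CPM (SD, n = 3) was at least 24.9-fold higher than 3 reads per library, which were worth 0.305 CPM on average in the control pools.

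Adamts14 (chromosome 10, 61197112 to 61273438, minus strand), the third procollagen N-proteinase, had the same shape. Its 1, 0 and 0 reads in control (0.0787, 0 and 0 CPM) stood against 41, 48 and 93 reads in DEX (3.40, 3.92 and 10.4 CPM). The DEX mean of 5.92 ± 3.92 CPM (SD, n = 3) was at least 19.4-fold higher than the floor of 3 reads per control library. Without DEX pool 3 the mean was 3.66 CPM and the bound 11.99-fold.

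Fbn1 (chromosome 2, 125300594 to 125507993, minus strand), which encodes fibrillin-1, was detected in every library. It was at 1.57, 0.236 and 0.870 CPM in control and at 12.3, 7.85 and 24.3 CPM in DEX. The lowest DEX pool was 4.99 times the highest control pool, and the ratio of the means was 16.6. This ratio was 26.8 without control pool 1 and 11.3 without DEX pool 3, the highest and lowest values when 1 pool was left out. On the scale of log2(CPM + 0.1) the difference was 4.04 (SE 0.66), with 5.50 (SE 0.61) for Adamtsl3 and 5.45 (SE 0.73) for Adamts14, which depend on the offset. In all 3 genes DEX pool 3 was the highest, and it was also highest for Tbx19 (1490 CPM, against 769 and 498 in DEX pools 1 and 2).

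With limma over all 24736 genes tested, these 3 were among the 30 genes called for DEX against control (0.121%) at an adjusted p under 0.05. This is what they were chosen for, so nothing is read from it. The calls leaned on single pools. Without control pool 2, control pool 3 or DEX pool 3 only Adamtsl3 of the members remained called, and without DEX pool 1 Adamtsl3 and Adamts14 did. Over the 12 fits that left out 1 pool, the log2 differences ran from 5.13 to 5.85 for Adamtsl3, 4.95 to 5.75 for Adamts14 and 3.39 to 4.55 for Fbn1. As every DEX pool of these genes lay above every control pool, leaving out 1 pool could not reverse a direction. Exons of Fbn1 share 2442 bases, 20.1% of their length, with Gm9913 on the opposite strand, and reads of the 2 genes cannot be told apart there if the library does not mark strand. Gm9913 was at 0.331, 0.409 and 1.23 CPM in the DEX pools and at 0 in all control pools, so its level was small beside that of Fbn1. Fbn2 shares 129 exon bases, 0.976% of its length, with Gm26507 on the opposite strand.

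**Figure D1:**
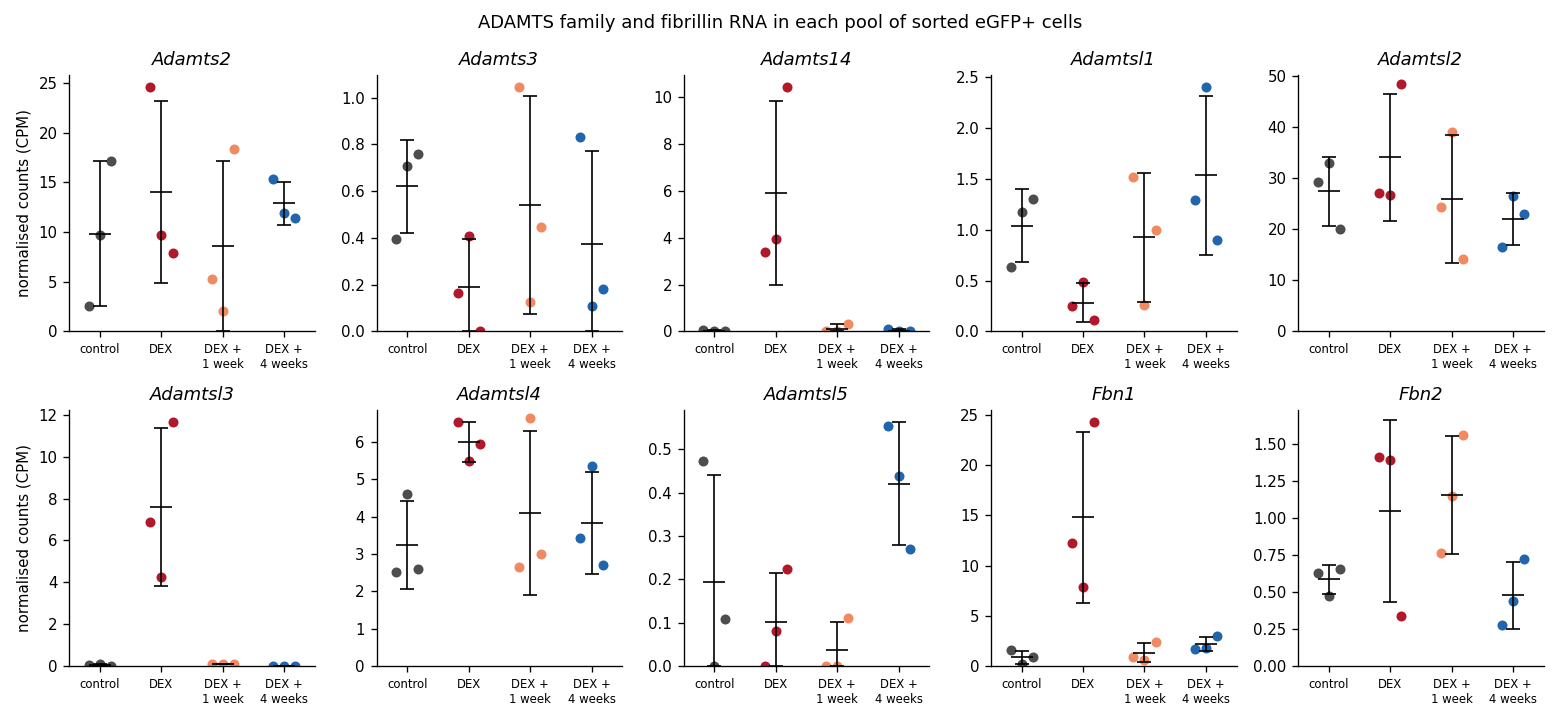
Normalised counts (CPM, linear axes that differ between genes) of the 10 genes in each of the 12 pools, by group; points are pools, and the horizontal mark and bars are the mean and SD (n = 3), with bars drawn down to 0 at most. Adamtsl3, Adamts14 and Fbn1 are high in the 3 DEX pools, whereas the DEX pools of Adamts2 and Adamtsl2 overlap with their control pools.

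The filter on low values asked for more than 0.1 CPM in at least 3 libraries, and all 10 genes passed it. Adamts14 passed through its DEX pools, as only 1 library outside DEX was above 0.1. Adamtsl3 was above 0.1 in 3 libraries outside DEX, each of which held a single read.

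None of the other 7 members was called in DEX, and 5 of them overlapped with control. Adamts2, the major procollagen N-proteinase of skin, was at 2.60, 9.66 and 17.2 CPM in control and at 24.6, 9.73 and 7.85 in DEX, so the groups overlapped and the spread within each was as wide as the difference (0.70 on the log2 scale, SE 0.72). Adamts3 was low throughout, with 5 to 7 reads per control pool and 0 to 5 per DEX pool (0.620 ± 0.198 against 0.191 ± 0.206 CPM, SD, n = 3). The 3 procollagen N-proteinases thus gave 3 different pictures, and Adamts14 alone of them went from the floor to a clear level.

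Among the ADAMTS-like genes, Adamtsl4, which encodes a fibrillin-1 binding protein known for its part in anchoring the lens, was at 2.52, 4.59 and 2.61 CPM in control and at 6.54, 5.48 and 5.94 in DEX. The groups did not overlap and the ratio of the means was 1.85 (0.92 on the log2 scale, SE 0.45). Adamtsl1 went the other way, from 0.629, 1.18 and 1.30 CPM in control to 0.248, 0.491 and 0.112 in DEX, also without overlap, though on only 1 to 6 reads per DEX pool (−1.64 on the log2 scale, SE 0.70). Adamtsl2, which binds fibrillin-1 and the latent TGF-β binding protein LTBP1, was at 27.5 ± 6.74 CPM in control and 34.1 ± 12.5 in DEX (SD, n = 3), and the groups overlapped. Adamtsl5 had at most 6 reads in any library of either group. Fbn2, the fibrillin that prevails in the embryo, was at 0.629, 0.471 and 0.652 CPM in control and at 1.41, 1.39 and 0.336 in DEX, so 2 of 3 DEX pools were above the controls and the third was below. In all, 4 of the 10 genes were higher in all 3 DEX pools than in all control pools and 1 was lower, where 6.61% and 6.23% of all genes tested did so. As the set was built on this contrast, the counts describe it and no more.

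Levels can be compared between genes only per length, here per kb of the union of annotated exons. In control the order was led by Adamtsl2 (3.44 CPM per kb, pools from 2.50 to 4.14), above Adamts2 (1.05, pools from 0.278 to 1.84) and Adamtsl4 (0.772, pools up to 1.09), whose ranges overlapped. The mean of each of the other 7 genes was at or below 0.114. Adamtsl3 and Adamts14 came last at 0.00846 and 0.00505. In DEX the means of Fbn1 (1.22), Adamts14 (1.14) and Adamtsl3 (0.981) stood just below those of Adamts2 (1.51) and Adamtsl4 (1.43), and the ranges of Fbn1, Adamts14 and Adamtsl3 each overlapped those of both genes. All the same, Adamtsl2 kept the highest mean in DEX (4.27 CPM per kb).

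After 1 week of recovery Adamtsl3 was back at 1 read in each of the 3 pools (0.0951, 0.127 and 0.111 CPM). Adamts14 had 0, 0 and 3 reads, and the 3 reads were in pool 3, the pool that stood apart. Fbn1 was at 0.951, 0.637 and 2.45 CPM, within reach of the control range, with a difference from control of 0.62 on the log2 scale (SE 0.66, 95% interval −0.78 to 2.02). Without pool 3 that difference was 0.11. Limma called 0 of the 10 genes, and 0% of all genes tested, and no member had an unadjusted p under 0.05. The likelihood ratio and quasi-likelihood tests of edgeR called none of them either, nor did DESeq2, where they called 50, 1 and 13 of all genes tested. Fbn2 was the member whose pools did not overlap with control: it was at 0.760, 1.15 and 1.56 CPM, a difference of 0.83 (SE 0.65, adjusted p = 1 in limma), or 0.61 without pool 3. Over all genes tested 3.47% were higher and 2.61% lower without overlap. This comparison and the next use the same control pools as the one that chose the genes.

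After 4 weeks of recovery Adamtsl3 had no read in any of the 3 pools, which allows up to 0.271 to 0.328 CPM, the worth of 3 reads. Adamts14 had 1, 0 and 0 reads. No fold from control is given for either gene, since both groups were at the floor. Fbn1 was at 1.76, 1.86 and 2.98 CPM, all above the highest control pool at 1.57. Its mean of 2.20 ± 0.677 CPM (SD, n = 3) was 2.46 times that of control, and the log2 difference was 1.45 (SE 0.66, 95% interval 0.05 to 2.86). Both depended on control pools: the ratio was 3.98 without control pool 1 and 1.80 without control pool 2, and the log2 difference ran from 0.81 to 1.97 when 1 pool was left out. This did not pass the test over all genes (limma, adjusted p = 0.769, unadjusted p = 0.0432). Fbn1 was the only member without overlap, where 6.77% of all genes tested were higher and 6.42% lower. Limma again called 0 of 10 members, and 0% of all genes tested, with 1 member at an unadjusted p under 0.05. The likelihood ratio test, the quasi-likelihood test and DESeq2 called none of the members, where they called 91, 0 and 59 of all genes.

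Adamts2, Adamts3, Adamtsl1, Adamtsl2 and Adamtsl4 overlapped with control in both recovery groups. Adamts2 was at 5.32, 2.04 and 18.3 CPM after 1 week and at 15.3, 11.9 and 11.4 CPM after 4 weeks. Its 4 week pools were close together, while the other groups of this gene spanned wide ranges, and the difference from control at 4 weeks was 0.74 on the log2 scale (95% interval −0.78 to 2.26). Adamtsl2 was at 24.3, 39.1 and 14.2 CPM after 1 week and at 16.5, 26.5 and 23.1 after 4 weeks. It had the narrowest intervals of the 10 genes, −0.95 to 0.60 at 1 week and −1.09 to 0.46 at 4 weeks. With all pools, an increase of more than 2-fold thus lies outside both. The 1 week differences of Adamts2 and Adamtsl2 depended on single pools. Without the pool that stood apart, that of Adamts2 went from −0.36 to −1.17 on the log2 scale, and that of Adamtsl2 from −0.17 to 0.20. That of Adamts2 changed its sign without pool 2 of the 1 week group (0.38) or without control pool 3 (0.22).

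Adamtsl4, the other member whose DEX pools were all above control, was at 2.66, 6.63 and 3.00 CPM after 1 week and at 3.42, 5.36 and 2.71 after 4 weeks, and both groups overlapped with control. Adamtsl1, which was below control in all DEX pools, was at 1.52, 0.255 and 1.00 CPM after 1 week. After 4 weeks it was at 1.29, 2.41 and 0.902 CPM, again overlapping with control (0.47 on the log2 scale, 95% interval −1.03 to 1.97). Adamts3 remained at 1 to 11 reads per pool in both recovery groups.

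The recovery groups can also be set against each other. The difference itself uses neither the DEX nor the control pools, although the filter and the estimate of the spread, and so the SE, intervals and p-values, come from all 12 libraries. Limma called 0 of the 10 genes between 4 weeks and 1 week of recovery, and 0% of all genes tested. The likelihood ratio test, the quasi-likelihood test and DESeq2 called none of the members either, of 161, 0 and 15 genes called in all. Adamtsl5, an ADAMTS-like protein that binds fibrillin, was at 0, 0 and 0.111 CPM at 1 week and at 0.554, 0.438 and 0.271 CPM at 4 weeks. These are 1 read in all against 13 reads, and the log2 difference was 1.98 (SE 0.72, limma, unadjusted p = 0.0145, adjusted p = 0.770), or 2.34 without pool 3 of the 1 week group. Fbn2 was lower at 4 weeks (0.277, 0.438 and 0.722 CPM) than at 1 week in every pool, by −1.14 on the log2 scale (SE 0.65, limma, adjusted p = 1), or −0.91 without that pool. Adamtsl3 also did not overlap, but this was 0 reads against 1 read per pool. That makes 1 member higher and 2 lower without overlap, where 5.19% and 3.72% of all genes tested were. For Fbn1 the difference of 0.84 had an interval from −0.57 to 2.24, so neither no change nor a change of over 4-fold was outside it, and without that pool it was 1.35.

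**Figure D2:**
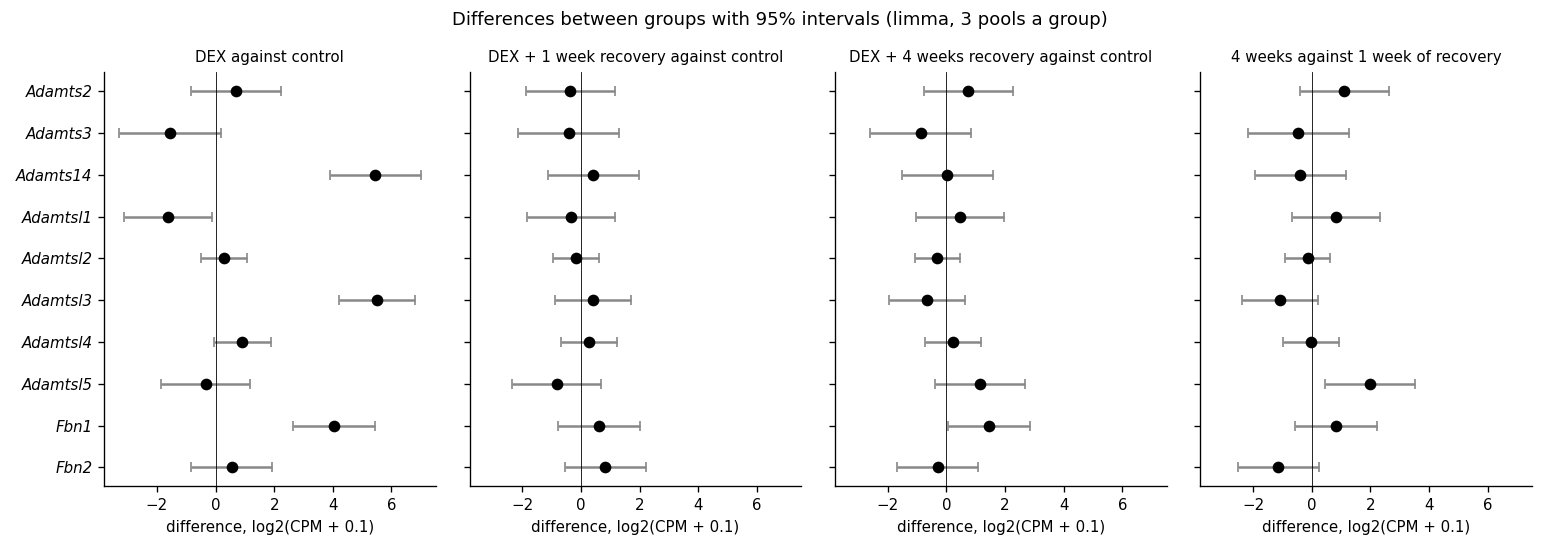
Difference between groups in log2(CPM + 0.1) for each of the 10 genes in 4 comparisons, with 95% intervals from limma (3 pools a group). The intervals of Adamtsl3, Adamts14 and Fbn1 lie far above 0 for DEX, the comparison on which these genes were chosen, and most intervals in the recovery comparisons include 0, with Fbn1 at 4 weeks against control and Adamtsl5 at 4 weeks against 1 week just outside it.

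The genes most like the 3 chosen ones were sought by Pearson's r of log2(CPM + 0.1) over the 12 libraries, among genes with a mean of at least 1 CPM (15755 genes compared). For Adamtsl3 the nearest was Adamts14 (r = 0.958, rho = 0.621), followed by Ptgds (0.957), Dgki (0.955), Klk1b21 (0.950) and Plb1 (0.946). For Adamts14 they were Adamtsl3, Sult1a1 (0.940), Kcnh4 (0.924), Pacs2 (0.923) and Ptprv (0.918). For Fbn1 they were Sult1a1 (0.974), Esrp2 (0.946), Smoc2 (0.932), Krt19 (0.914) and Ptprv (0.910). Klk1b21 belongs to a cluster of near-identical kallikrein genes, so its reads may be split among copies. These values rest on the step between the 3 DEX pools and the other 9, which all these genes share. The mean of at least 1 CPM was taken over all 12 libraries, DEX included. Outside DEX no group mean of Adamtsl3, Adamts14, Dgki, Klk1b21, Plb1 or Krt19 reached 1 CPM. Kcnh4 had means of 1.32 CPM in control, 0.487 after 1 week and 0.311 after 4 weeks of recovery, which average below 1. These genes, Kcnh4 included, thus entered the ranking only through their DEX pools, the group on which the 3 genes were chosen. Once the group means were removed, r between Adamtsl3 and Adamts14 was 0.379 and that between Adamts14 and Fbn1 was 0.686, whereas Fbn1 and Sult1a1, a sulphotransferase, still had 0.938. Sult1a1 was picked as the nearest gene to Fbn1 on the same 12 libraries, so its 0.938 is not independent of that choice. Fbn1 itself ranked 18 for Adamts14 and 184 for Adamtsl3.

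Sult1a1, the nearest gene to Fbn1, had a mean of 3.74 CPM in control, 30.6 in DEX, 4.18 after 1 week and 4.68 after 4 weeks of recovery. Smoc2, a secreted matrix-associated calcium-binding protein, went from 1.80 to 14.0 CPM between control and DEX and was at 1.82 and 3.04 in recovery.

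Other genes of the pathway were taken from a list of 59 that holds none of the 10: other ADAMTS proteases, microfibril and elastic fibre proteins, fibrillar procollagens and their processing enzymes, and inhibitors and ligands. Of these 56 passed the filter. None was called by limma for DEX against control, with 8 at an unadjusted p under 0.05, whereas edgeR's likelihood ratio test called 3 and DESeq2 called 2 of them, and edgeR's quasi-likelihood test called 0. Over all genes tested 1682 (6.80%) were at an unadjusted p under 0.05, and the likelihood ratio test called 274, DESeq2 204 and the quasi-likelihood test 42. Among the 56 there were 3 higher (5.36%) and 4 lower (7.14%) without overlap, near the 6.61% and 6.23% of all genes, and the median log2 difference was −0.23, against −0.02 over all genes tested.

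Of the 4 pathway genes with the smallest p, 3 had lower values in DEX, where the chosen members had higher ones. Col3a1, a fibrillar collagen and thus a substrate of the procollagen proteinases, was at 2.60, 1.77 and 1.30 CPM in control and at 0.497, 0.0818 and 0 in DEX (−3.12 on the log2 scale, SE 0.66, limma, adjusted p = 0.0971). Tgfb1, the ligand that microfibrils hold in latent form, had 3 or fewer reads in each DEX pool and a control mean of 1.40 ± 0.497 CPM (SD, n = 3), which was at least 5.04-fold higher than the floor (limma, adjusted p = 0.225). Timp1, a metalloproteinase inhibitor, was at 12.3 ± 1.00 CPM in control and 3.09 ± 1.81 in DEX (SD, n = 3; −2.10, SE 0.59, limma, adjusted p = 0.298). Ltbp2, a fibrillin-binding protein, had 0 reads in all control pools and 21 in all in the DEX pools, a mean at least 1.95-fold higher than the floor (limma, adjusted p = 0.459). The other 14 ADAMTS proteases that were tested had a median of −0.23, and 1 of them did not overlap: Adamts16, singled out after its values were seen, at 0.887 ± 0.834 CPM in control and 3.01 ± 0.321 in DEX (SD, n = 3; limma, adjusted p = 0.586).

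In recovery the list stayed near the median of all genes at 1 week, and more of its genes were above control at 4 weeks. At 1 week limma called 0 of 56, with 5 (8.93%) at an unadjusted p under 0.05, against 3.79% of all genes. Without overlap 3 were higher (5.36%) and 2 lower (3.57%), against 3.47% and 2.61%, and the median was −0.005. Neither edgeR test nor DESeq2 called any of the 56. Over all genes the likelihood ratio test called 50, the quasi-likelihood test 1 and DESeq2 13. At 4 weeks limma called 0 as well, with 15 (26.8%) at an unadjusted p under 0.05, against 6.35% of all genes. Of the 56 genes 18 (32.1%) were higher than control in every pool and none was lower, against 6.77% and 6.42% of all genes, and the median log2 difference was 0.62, against 0 over all genes tested. The procollagens and their processing enzymes had the highest median of the lists (0.88, 6 of 11 without overlap), followed by the microfibril and elastic fibre proteins (0.71, 8 of 20). Col3a1 was at 9.69 ± 4.79 CPM against 1.89 ± 0.654 in control (SD, n = 3; 2.23 on the log2 scale, limma, adjusted p = 0.557). At this time the likelihood ratio test called Col3a1 and Timp3, DESeq2 called Col3a1 and Fbln5, and the quasi-likelihood test called none, where they called 91, 59 and 0 of all genes. Between 4 weeks and 1 week of recovery limma called 0, with 12 (21.4%) at an unadjusted p under 0.05, against 5.47% of all genes, the likelihood ratio test called Ltbp4, Timp2 and Timp3, DESeq2 called Ltbp4 and the quasi-likelihood test none, of 161, 15 and 0 genes called in all. Without overlap 15 (26.8%) were higher and 1 (1.79%) lower, against 5.19% and 3.72% of all genes. The shares that involve the 1 week group include the pool that stood apart, and were not taken without it.

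**Figure D3:**
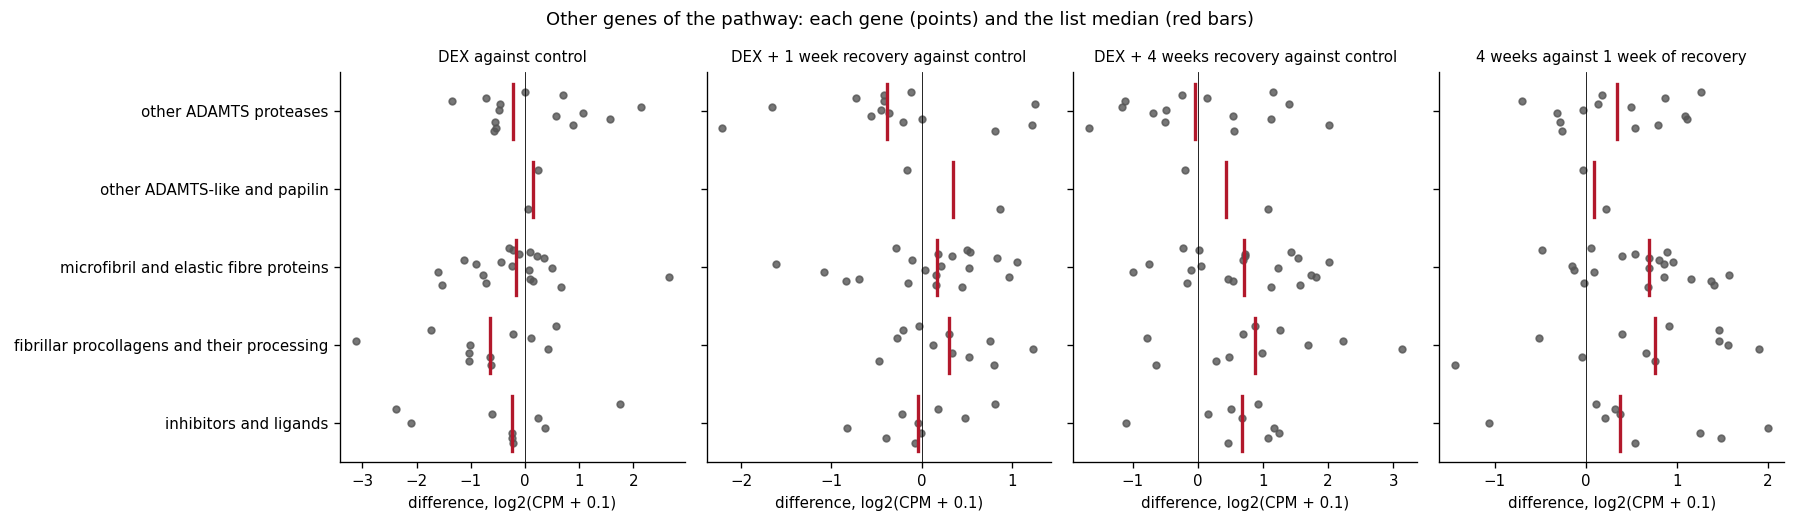
Difference in log2(CPM + 0.1) of the 56 tested pathway genes that are not among the 10, by list and comparison (the range of the x axis differs between panels); points are genes and red bars the median of a list. The medians of the procollagen and microfibril lists are −0.64 and −0.17 for DEX and 0.88 and 0.71 for 4 weeks of recovery against control.

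Summed markers of stromal cells were also above control at 4 weeks. The 9 fibroblast and pericyte markers summed to 5.11 to 31.0 CPM in control, 2.90 to 9.48 in DEX, 14.1 to 38.9 after 1 week and 47.3 to 59.2 after 4 weeks of recovery, with every marker detected in each group. Dcn made up much of the sum (32.3 CPM on average at 4 weeks), and the markers did not all move alike: 7 of 9 had a log2 difference above 0 at 4 weeks, Rgs5 (−0.81) and Cspg4 (−0.94, at the floor there) did not, and Abcc9 was higher than control in every DEX pool while 7 of 9 had a difference below 0 there. The 8 endothelial markers summed to 7.24 to 67.3, 3.64 to 9.89, 27.3 to 178 and 82.3 to 156 CPM in the same order. At 4 weeks both sums lay above control in every pool, where Fbn1 and 18 pathway genes did too. So did the gonadotroph and thyrotroph sum (1373 to 1446 against 697 to 857 CPM). Of the corticotroph markers, Tbx19 and Neurod1 were below control in every 4 week pool (ratios of 0.495 and 0.480). Pomc (0.972), Pcsk1 (1.09), Crhr1 (0.550) and Avpr1b (0.492) overlapped with control there, as did the corticotroph sum (48721 to 80895 CPM). The part of stromal or other cells in the 4 week difference was not tested. In DEX both stromal sums overlapped with control but had their lowest values there, as had Col3a1, while Adamtsl3, Adamts14 and Fbn1 had their highest. The 6 corticotroph markers did not move one way in DEX. Their sum, most of which is Pomc, was 5558 to 9417 CPM in DEX, below the 35294 to 75533 of control in every pool. Tbx19 and Avpr1b were higher in all DEX pools than in all control pools, with ratios of the means of 3.04 and 3.08. Pomc was lower in every pool with a ratio of 0.0936, and Crhr1 (0.678), Pcsk1 (0.665) and Neurod1 (0.952) overlapped with control. The part of the corticotroph share in the values of Adamtsl3, Adamts14 and Fbn1 was not tested.

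**Figure D4:**
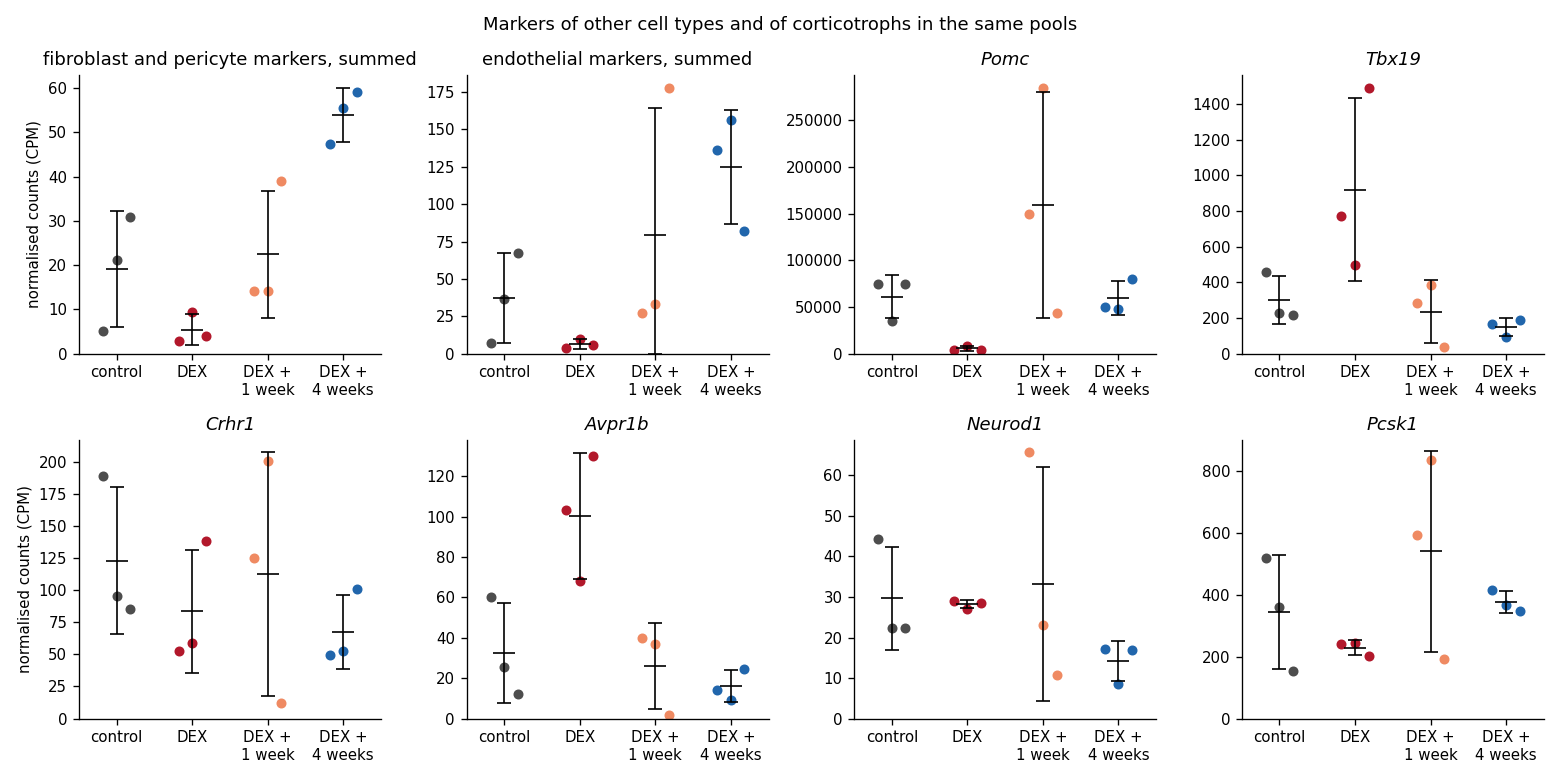
Summed normalised counts (CPM) of the fibroblast and pericyte markers and of the endothelial markers, and the levels of the 6 corticotroph markers, in each pool by group (the y axis differs between panels); points are pools, marks and bars the mean and SD (n = 3), with bars drawn down to 0 at most. Both stromal sums have their lowest values in DEX but overlap with control there, Tbx19 and Avpr1b are higher and Pomc lower than control in every DEX pool, the other 3 corticotroph markers overlap with control, and pool 3 of the 1 week recovery group has little Tbx19 (39.5) and Avpr1b (1.56) and an endothelial sum of 178.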

How the data were processed

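Sorted cells of 12 pools (4 groups of 3) were sequenced after SMART-V4 amplification from RNA too scarce to quantify. Per the labels and the study's methods, the authors trimmed reads with Trim Galore 0.6.5, aligned them to GRCm38 (Ensembl release 98) with STAR 2.7.1a, counted them with featureCounts 2.0.0 (mapping quality of at least 20, strand-specific) and used edgeR. Each deposited value is a normalised signal of 1 gene in 1 library, the CPM of the TMM-scaled library size. Whole reads were recovered from them: 100% of the 271881 values above 0 came out whole within 0.01 read.

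Genes above 0.1 CPM in at least 3 libraries (24736) were fitted as log2(value + 0.1) with limma 3.58.1 (R 4.3.3; lmFit, eBayes with trend), all 12 libraries in 1 model, with Benjamini-Hochberg adjustment over all genes and calls at an adjusted p under 0.05. Alternatives were other offsets, filters, scaling, array weights, a 2-group fit, a replicate block, each pool left out, and edgeR 4.0.16 and DESeq2 1.42.0 on the recovered reads. The scripts were tested on simulated data. A group with 3 reads or fewer in every library counts as at the floor, and intervals and floors cover counting error only where they rest on reads. Positions and exon lengths are from GENCODE vM21 on GRCm38, and the library kit is not stated to mark strand. The replicates are pools, and p-values measure the spread between pools.

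The genes and lists were chosen with earlier results of these data known. Named genes were the 10 members, the pathway genes called in any comparison with control or otherwise the 4 with the smallest unadjusted p for DEX, and the 5 genes most like each of Adamtsl3, Adamts14 and Fbn1. Marker lists of melanotrophs, stem and folliculostellate cells, macrophages, and gonadotrophs and thyrotrophs were also summed. The melanotroph sum was 39.7 to 150 CPM, the stem and folliculostellate sum 23.1 to 67.1, the macrophage sum 14.3 to 54.3 and the gonadotroph and thyrotroph sum 410 to 1446 over the 12 libraries.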

Additional observations from a re-analysis of the deposited data

Results flagged for a closer look

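Adamtsl5 lay on opposite sides of the control mean in the recovery groups. All 3 pools after 1 week (0, 0 and 0.111 CPM) lay below the control mean of 0.194 CPM, and all 3 pools after 4 weeks (0.554, 0.438 and 0.271 CPM) lay above it. Both groups overlapped with the control pools, neither difference from control passed limma's test, and the control mean rests mostly on the 6 reads of control pool 1 (0.472 CPM, against 0 and 0.109). The log2 difference between 4 weeks and 1 week was 1.98 and did not pass limma's test over all genes (unadjusted p = 0.0145, adjusted p = 0.770), and it rests on 1 read in all against 13 reads.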

How the results depend on the processing

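Of the calls on the 10 genes, the 3 in DEX against control were the ones that changed: 0 remained when only these 2 groups were fitted, and 1 to 3 when 1 pool was left out, while all 3 remained under every other alternative tried, the replicate block included. In the other comparisons 0 members were called under every alternative. Pathway genes called for DEX against control went from 0 to 3 with edgeR's likelihood ratio test (Col3a1, Lox, Timp1), 2 with DESeq2 (Col3a1, Tgfb1) and 1 with array weights (Col3a1), and for 4 weeks of recovery against control from 0 to 2 (Col3a1, Timp3), 2 (Col3a1, Fbln5) and 3 (Col5a2, Fbln1, Fbln5). The cause was not tested. Over all genes, the 30 calls for DEX became 49 and 54 with offsets of 0.5 and 1, 274, 204 and 166 with the likelihood ratio test, DESeq2 and array weights, 1 with the 2 groups alone, 2 without control pool 2 or DEX pool 3, 4 without control pool 3 or DEX pool 1, and 66 without 1 week recovery pool 3. The 0 calls of the recovery comparisons became up to 50 at 1 week, 186 at 4 weeks and 161 between the 2. The log2 differences for DEX moved with the offset and the tool: with 1 in place of 0.1 the log2 difference was 2.92 for Adamtsl3, 2.61 for Adamts14, 2.99 for Fbn1, −0.45 for Adamts3 and −0.66 for Adamtsl1. With an offset of 0.5 it was 3.74 for Adamtsl3 and 3.45 for Adamts14, and with the edgeR tests and DESeq2 it was 6.61 to 6.83 and 7.06 to 7.33.

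In the comparisons other than DEX against control, directions reversed for 27 single values, none of them called. Uncalled members were not counted this way for DEX against control. There, leaving out 1 pool gave −0.0608 to 1.28 for Adamts2 and −0.94 to 0.32 for Adamtsl5, so both directions could change. With array weights the log2 differences at 1 week against control became 0.34 for Adamts3, −0.0261 for Adamts14, 0.28 for Adamtsl1 and −0.25 for Adamtsl4, and Adamts14 at 4 weeks became −0.0805 (−0.0612 with DESeq2) and Adamtsl4 between 4 weeks and 1 week 0.39. Leaving out 1 pool at a time gave, at 1 week against control, −1.17 to 0.38 for Adamts2, −0.99 to 0.17 for Adamts3, −0.28 to 0.78 for Adamts14, −0.81 to 0.29 for Adamtsl1, −0.53 to 0.20 for Adamtsl2, −0.14 to 0.54 for Adamtsl4 and −0.0228 to 1.14 for Fbn1. At 4 weeks against control it gave −0.0133 to 1.33 for Adamts2, −0.28 to 0.31 for Adamts14 and −0.0338 to 0.50 for Adamtsl4. Between 4 weeks and 1 week it gave −1.11 to 0.11 for Adamts3, −0.74 to 0.31 for Adamts14, −0.51 to 0.22 for Adamtsl2 and −0.30 to 0.37 for Adamtsl4.

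The labels do not say whether the pool numbers pair the libraries, and these values cannot settle it. The correlation of deviations over 18 pairs with the same number ran from −0.29 to 0.40, with a median of 0.056, and 7 were over 0.1. Pairs with different numbers ran from −0.27 to 0.38. With the replicate block, 34 genes in place of 30 were called for DEX and the members called stayed at 3. Depth limits the low genes: Adamts3, Adamtsl1, Adamtsl5 and Fbn2 rest on 0 to 22 reads per library, so changes of a few reads set their differences.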
